A study of Mus musculus with 12 samples.

Results

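Camk2a, Camk2b, Nrgn, Ddn, Dlg4, Shank3, Icam5, Ptk2b and Lrrc10b were followed through 12 mouse brain libraries, as 9 genes of the 56748 in the deposited table of FPKM (fragments per kilobase of gene, scaled to each library, so a level corrected for gene length). They were chosen by their FPKM in these same libraries, which earlier results showed to be higher after treatment with LPS and DMA than after LPS alone, so their values in that comparison are given as a description, and counts past a threshold there support nothing about them. All 9 are protein-coding, and all 9 passed the filter on low values used for testing, which asked 2 or more of the 12 libraries to reach 0.5 FPKM. Lrrc10b reached that level in 11 libraries and each of the other 8 genes in all 12. The word "postsynaptic" in their name held for 8 of the genes by what is known of them, and no such role is given here for Lrrc10b. Whether each gene is confined to the forebrain was not tested. In the library LPS male 1 the cortical gene Tbr1 was at 0.0670 FPKM and Ddn at 0.507. Camk2b, Dlg4 and Shank3 kept 32.1, 17.9 and 6.85 FPKM there.

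The mice were adult C57BL/6 animals in 3 arms of 4, each with 2 females and 2 males. The LPS+DMA arm received lipopolysaccharide (LPS), a molecule from the outer membrane of bacteria that triggers inflammation, by injection into the abdomen at 0.5 mg/kg once a day for 7 days, together with daily injections of N,N-dimethylacetamide (DMA), a small organic solvent used in drug formulations. No source used here states the dose of DMA. The LPS arm received LPS alone and the PBS arm the saline carrier on the same schedule, with no arm given DMA without LPS. RNA was taken from brain on day 7, 1 library per mouse, and nothing in the labels describes a batch.

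Apart from Lrrc10b, these genes serve the receiving side of excitatory synapses. There, glutamate released by a neuron opens receptors on the dendritic spine of the next. Under the spine membrane lies the postsynaptic density, a protein mesh that holds the receptors in place and couples calcium entry to enzymes. Its most abundant enzyme is calcium/calmodulin-dependent kinase II (CaMKII), which strengthens active synapses, and neurons of cortex, hippocampus and striatum are especially rich in it.

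The levels of these genes correlated across the 12 libraries to different degrees (r of 0.473 to 0.990 over 36 pairs of genes on the log2 scale, a description with no test), so the stretches before their transcription starts were compared. RefSeq promoters in the older build GRCm38.p6 were found for 6 of the genes, with 8 starts in all. For Camk2a, Ddn and Ptk2b none was matched. The 250 bases before the start are shown for the 3 genes whose window holds a CCAAT box (CCAAT, or ATTGG on the other strand), in capitals, and for Camk2b, which holds none. They run 5′ to 3′ along the gene's strand, at chr9:37552746-37552995 (minus) for Nrgn, chr9:21031788-21032037 (plus) for Icam5, chr19:10457448-10457697 (minus) for Lrrc10b and chr11:6065749-6065998 (minus) for Camk2b.
Nrgn: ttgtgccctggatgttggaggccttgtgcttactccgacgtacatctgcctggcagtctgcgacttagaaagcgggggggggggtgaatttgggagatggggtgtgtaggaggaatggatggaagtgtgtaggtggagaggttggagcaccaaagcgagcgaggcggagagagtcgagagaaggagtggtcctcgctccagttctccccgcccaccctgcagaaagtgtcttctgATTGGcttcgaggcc
Icam5: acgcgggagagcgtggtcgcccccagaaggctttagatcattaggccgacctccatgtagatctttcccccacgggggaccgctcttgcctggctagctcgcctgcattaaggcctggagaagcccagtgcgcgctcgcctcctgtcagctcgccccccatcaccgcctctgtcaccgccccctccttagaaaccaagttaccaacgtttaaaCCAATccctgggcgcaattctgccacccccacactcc
Lrrc10b: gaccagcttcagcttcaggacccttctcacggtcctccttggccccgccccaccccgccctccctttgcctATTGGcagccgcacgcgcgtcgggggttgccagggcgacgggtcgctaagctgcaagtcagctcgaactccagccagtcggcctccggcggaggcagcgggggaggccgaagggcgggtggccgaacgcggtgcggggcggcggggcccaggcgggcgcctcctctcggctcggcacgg
Camk2b: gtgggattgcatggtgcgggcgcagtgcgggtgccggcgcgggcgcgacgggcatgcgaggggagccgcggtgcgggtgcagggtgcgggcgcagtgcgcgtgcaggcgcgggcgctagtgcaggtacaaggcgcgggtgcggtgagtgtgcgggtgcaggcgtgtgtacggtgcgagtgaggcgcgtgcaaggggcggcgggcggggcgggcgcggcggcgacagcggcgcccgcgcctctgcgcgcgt
The CCAAT box begins 15 bases before the start in Nrgn, 37 bases before it in Icam5 and 179 bases before it in Lrrc10b, and 33.8% of 32851 RefSeq promoter windows of the same length hold one. The GC box (GGGCGG, or CCGCCC on the other strand) occurs 4 times in Lrrc10b and in Shank3, 3 times in Camk2b, once in Nrgn, in Icam5 and in 1 of the 3 Dlg4 windows, and at least once in 32.7% of all windows. No window of these genes holds TATAAA, found on either strand in 12.4% of windows, or TGACGTCA, found in 1.55%. Shank3 holds the EGR motif GCGTGGGCG once, on the other strand as CGCCCACGC, which 0.536% of windows share. The windows differ in base composition, from 47.2, 56.8 and 68.0% G and C in the 3 Dlg4 windows and 58.4% in Nrgn to 78.4% in Camk2b and 82.4% in Shank3, against a median of 52.4% over all windows.

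In the GRCm39 coordinates of the deposited table, Camk2a (ENSMUSG00000024617) lies on chromosome 18 from 61058690 to 61121224 on the plus strand and Camk2b (ENSMUSG00000057897) on chromosome 11 from 5919644 to 6016362 on the minus strand. Nrgn (ENSMUSG00000053310) occupies bases 37455788 to 37464200 of chromosome 9 and Ddn (ENSMUSG00000059213) bases 98701658 to 98707371 of chromosome 15, each on the minus strand. Dlg4 (ENSMUSG00000020886) lies on chromosome 11 from 69907768 to 69938348 and Shank3 (ENSMUSG00000022623) on chromosome 15 from 89383826 to 89444464, both on the plus strand. Icam5 (ENSMUSG00000032174) occupies chromosome 9 from 20943369 to 20950332 on the plus strand. Ptk2b (ENSMUSG00000059456) was mapped to bases 66390706 to 66518501 of chromosome 14 and Lrrc10b (ENSMUSG00000090291) to bases 10432735 to 10434837 of chromosome 19, again on the minus strand. Genes on the opposite strand overlap 4 of them in the table, with up to 82.5 FPKM over Nrgn, 10.4 over Ddn, 4.94 over Icam5 and 1.69 over Shank3. The labels do not say whether the libraries kept strand, so reads there are uncertain. Camk2a is overlapped by 2 genes on its own strand, with up to 24.0 FPKM, whose reads strand cannot separate.

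Reads counted in the genes of the table, recovered from the FPKM steps, numbered 27.5 to 41.4 M (M, megareads) per library with a median of 34.4 M. Reads outside these genes are not in the totals. The 4 LPS libraries did not resemble each other in which brain regions they held, and the labelled whole brain was not equally represented. Gabra6, a receptor subunit that marks granule cells of the cerebellum, measured 114, 15.6 and 90.5 FPKM in LPS female 1, LPS male 1 and LPS male 2, and 74.6 FPKM in PBS female 1. It was 0.170 FPKM in LPS+DMA male 2 and had no read in the other 7 libraries. Results are therefore given with and without the 4 libraries above 1 FPKM, which leaves 1 LPS library, female 2. Genes annotated as ribosomal RNA took 0.0499% of the reads in LPS female 2 and 3.60 to 10.9% in the other 11 libraries.

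Camk2a, the alpha subunit of the kinase, was at 350.2, 311, 311 and 297 FPKM in the LPS+DMA libraries, against 50.8, 291, 9.45 and 10.6 FPKM in the LPS libraries and 138, 268, 193 and 174 FPKM in the PBS libraries, each time female 1, female 2, male 1 and male 2. Every LPS+DMA library lay above every LPS and every PBS library, and LPS female 2 stood apart from the other 3 LPS libraries at a level above all of PBS. Means were 317 ± 22.9 FPKM in LPS+DMA, 90.4 ± 135 in LPS and 193 ± 54.9 in PBS (SD, n = 4 each). Camk2b, the beta subunit, which also bundles actin in spines, was at 82.3, 97.8, 94.0 and 79.2 FPKM in LPS+DMA, against 47.9, 63.9, 32.1 and 43.4 FPKM in LPS and 54.9, 80.4, 53.2 and 50.9 FPKM in PBS. LPS+DMA and LPS did not overlap for Camk2b, whereas PBS female 2 lay above the lowest LPS+DMA library.

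Nrgn encodes neurogranin, a small dendritic protein that holds calmodulin when calcium is low. It was the most abundant of the 9 genes in 8 of the 12 libraries, at 675, 352, 307 and 303 FPKM in LPS+DMA, against 46.8, 459, 4.93 and 9.44 FPKM in LPS and 283, 395, 337 and 334 FPKM in PBS. LPS female 2 lay above all PBS libraries and above 3 of the LPS+DMA libraries, while the other 3 LPS libraries lay below all others. Ddn encodes dendrin, whose messenger RNA travels into dendrites. It was at 231, 277, 245 and 197 FPKM in LPS+DMA, against 42.8, 235, 0.507 and 0.959 FPKM in LPS and 76.8, 231, 96.6 and 87.1 FPKM in PBS. The lowest of these, LPS male 1, rested on 73 reads, and the highest level over the 12 libraries was 547-fold above it, the widest range among the 9 genes.

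The scaffold genes had narrower ranges. Dlg4 encodes PSD-95, the membrane-associated scaffold that anchors glutamate receptors. It was at 48.6, 46.5, 44.9 and 45.1 FPKM in LPS+DMA, against 23.8, 40.5, 17.9 and 19.7 FPKM in LPS and 31.1, 44.1, 36.4 and 31.8 FPKM in PBS. The LPS+DMA libraries lay close together and above all others, and LPS female 2 was again the highest in its arm. Shank3, a deeper scaffold that links the receptor complexes to actin, was at 18.6, 19.6, 12.7 and 19.9 FPKM in LPS+DMA, against 11.3, 22.3, 6.85 and 11.96 FPKM in LPS and 19.2, 16.1, 20.1 and 15.9 FPKM in PBS. Its arms overlapped in every pairing, and its highest value was in LPS female 2.

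Icam5 encodes telencephalin, an adhesion molecule of dendrites in the telencephalon, and was at 47.3, 58.5, 54.9 and 35.6 FPKM in LPS+DMA, against 8.84, 43.4, 0.739 and 1.07 FPKM in LPS and 16.5, 58.0, 18.2 and 17.7 FPKM in PBS. Ptk2b encodes PYK2, a tyrosine kinase that responds to calcium, and was at 67.9, 72.2, 69.3 and 60.7 FPKM in LPS+DMA, against 7.72, 44.0, 1.31 and 1.55 FPKM in LPS and 20.7, 55.7, 24.0 and 22.4 FPKM in PBS. For Ptk2b every LPS+DMA library exceeded every other library, and for Icam5 the arms overlapped through LPS female 2 and PBS female 2. Lrrc10b, a leucine-rich repeat gene, was at 23.9, 65.7, 29.7 and 4.92 FPKM in LPS+DMA, against 1.02, 16.5, 0.549 and 0.279 FPKM in LPS and 0.667, 1.31, 4.50 and 2.33 FPKM in PBS. It followed another course than the rest, with PBS as low as LPS and LPS+DMA male 2 far below its arm.

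**Figure D1:**
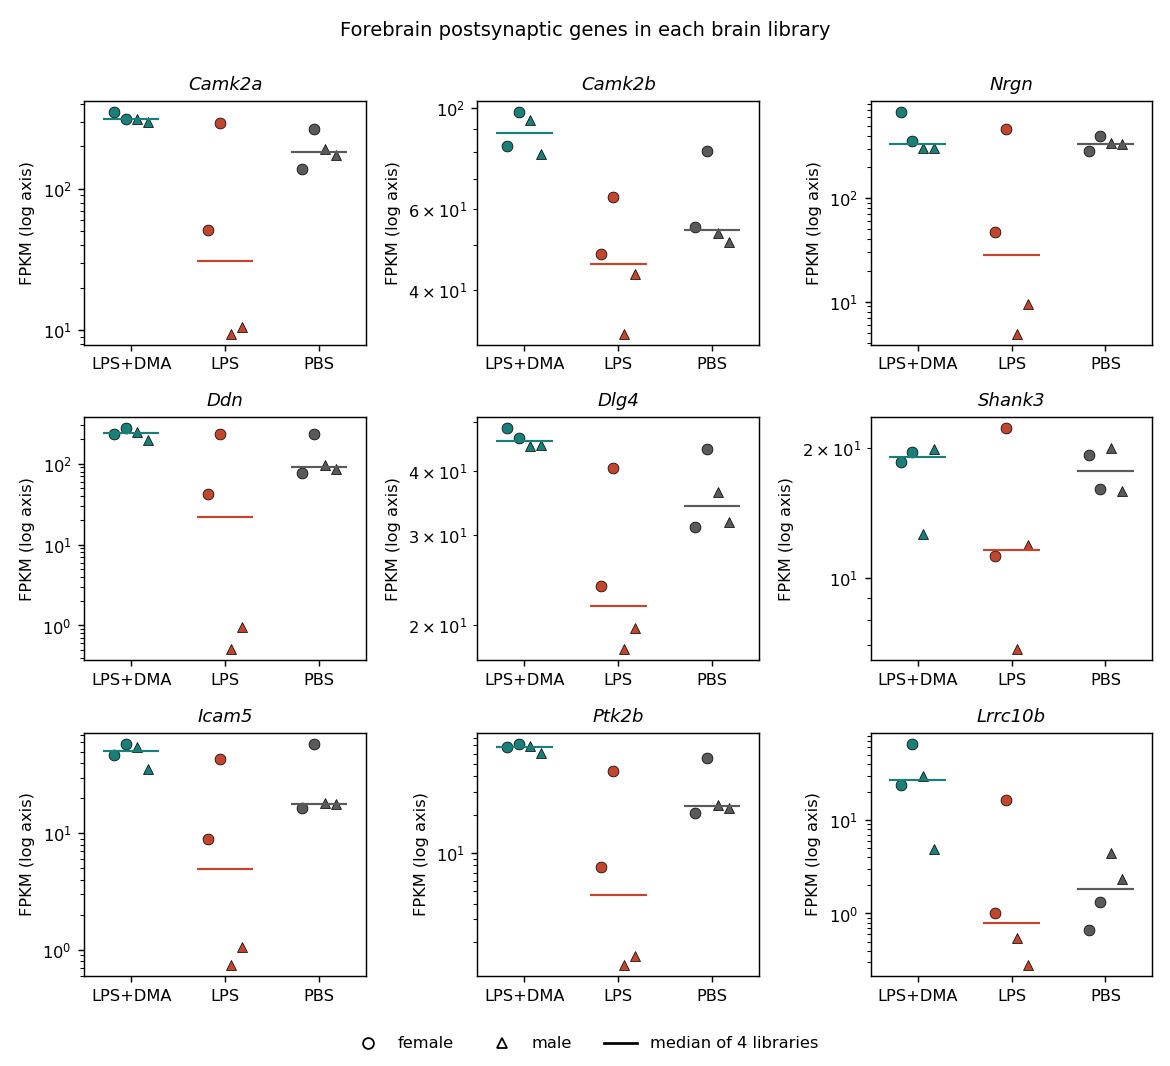
FPKM (log axes) of the 9 genes in each library, with circles for females, triangles for males and a line at the median of 4 libraries per arm. In 8 of the 9 panels LPS male 1 is the lowest of all points, and LPS female 2 sits above the other 3 LPS points in all 9.

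The genes ranged from steady to extremely variable. Over the 12 libraries the highest level was 2.72-fold above the lowest for Dlg4, 3.05-fold for Camk2b and 3.25-fold for Shank3. It was 37.1-fold for Camk2a, 55.0-fold for Ptk2b, 79.2-fold for Icam5, 137-fold for Nrgn and 235-fold for Lrrc10b. LPS male 1 was the lowest library for 8 genes and LPS male 2 for Lrrc10b. Within the LPS+DMA arm the coefficient of variation was 3.72% for Dlg4, 7.20% for Ptk2b and 7.21% for Camk2a, and 81.8% for Lrrc10b.

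The order of the genes by length-corrected level changed between libraries. In LPS male 1 Camk2b led at 32.1 FPKM, before Dlg4 and Camk2a, and Ddn was last. Among tested genes, ranked by FPKM within a library, Nrgn reached rank 15 at best and Camk2a rank 46, and their worst ranks were 7487 and 4531. Ddn ranged from rank 65 to rank 16579. In PBS the means were 337 ± 45.6 FPKM for Nrgn, 193 ± 54.9 for Camk2a, 123 ± 72.6 for Ddn, 59.9 ± 13.8 for Camk2b, 35.9 ± 6.00 for Dlg4, 30.7 ± 16.7 for Ptk2b, 27.6 ± 20.3 for Icam5, 17.8 ± 2.13 for Shank3 and 2.203 ± 1.68 for Lrrc10b (SD, n = 4 each). Dlg4, Ptk2b and Icam5 lay within their spread of each other. The order of the arms by mean was LPS+DMA, PBS and LPS for 7 genes, while Shank3 was level in LPS+DMA and PBS and Lrrc10b was lowest in PBS. Values of the neighbours PBS and LPS overlapped for all 9, and those of LPS+DMA and PBS for Camk2b, Nrgn, Ddn, Shank3 and Icam5.

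The make-up of CaMKII transcripts differed between libraries. Camk2a varied widely, and the more broadly expressed subunits Camk2g and Camk2d varied less. Over the 12 libraries Camk2g was at 27.1 to 50.4 FPKM and Camk2d at 3.84 to 8.03 FPKM. Camk2a made up 72.9, 70.2, 69.4 and 69.6% of the summed FPKM of Camk2a, Camk2b, Camk2g and Camk2d in the LPS+DMA libraries, against 36.3, 74.2, 9.70 and 9.96% in the LPS libraries and 58.7, 69.5, 66.7 and 63.5% in the PBS libraries. The gamma subunit Camk2g took 51.8% in LPS male 1 and 43.0% in LPS male 2, and was the leading subunit in both. The ratio of Camk2a to Camk2b was 3.18 to 4.25 in LPS+DMA, 0.243 to 4.56 in LPS and 2.51 to 3.63 in PBS. Camk2g itself averaged 37.8 ± 8.33 FPKM in LPS+DMA, 40.3 ± 9.26 in LPS and 36.4 ± 5.58 in PBS, and Camk2d 6.13 ± 1.81, 6.32 ± 0.649 and 6.47 ± 0.981 FPKM in the same arms (SD, n = 4 each). In LPS+DMA against LPS the log2 changes of Camk2g and Camk2d were -0.087 and -0.073 and neither passed the test (limma with Benjamini-Hochberg adjustment, adjusted p = 0.745 and 0.829).

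**Figure D2:**
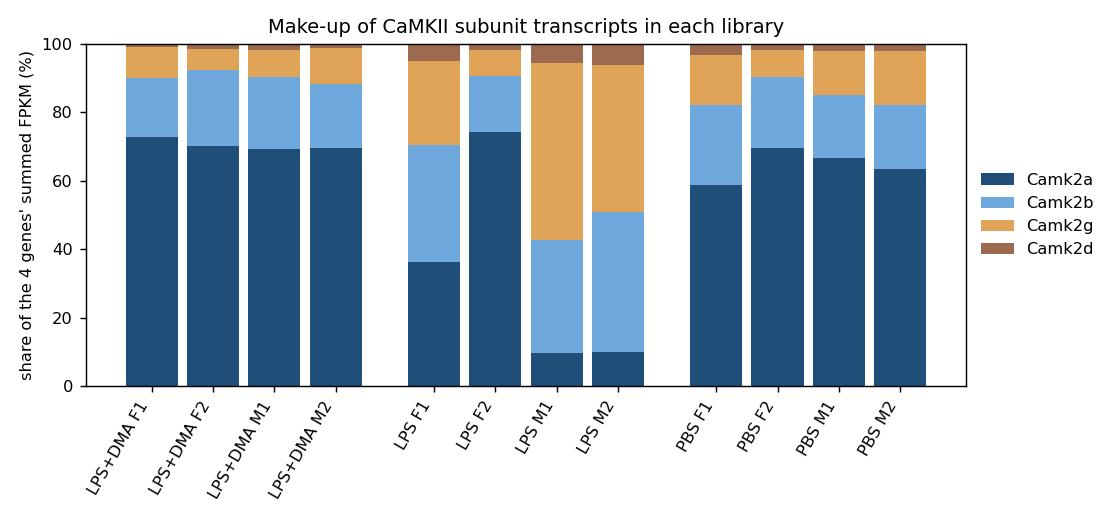
Share of each CaMKII subunit gene in the summed FPKM of the 4 genes (percent), 1 bar per library. Camk2a fills 69.4 to 72.9% of the bars in LPS+DMA, against 9.70% and 9.96% in the 2 LPS males and 74.2% in LPS female 2.

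LPS+DMA against LPS is the comparison in which the genes had been picked. On the log2(FPKM + 1) scale, which understates the change of low genes, the difference was 4.16 for Ddn, 3.50 for Nrgn, 3.30 for Ptk2b, 3.11 for Camk2a, 3.02 for Lrrc10b, 2.97 for Icam5, 0.94 for Camk2b, 0.91 for Dlg4 and 0.50 for Shank3. The ratio of the arm means was 3.51 for Camk2a, 3.15 for Nrgn, 4.95 for Ptk2b and 1.35 for Shank3. By the threshold used for all genes, a limma adjusted p under 0.05, 8 of 9 were higher and Shank3 was not, where 5.79% of the 19571 tested genes were higher and 3.88% lower, and nothing is read from this since the same contrast chose the genes. The median of the 9 differences was 3.02, against 0.010 over all genes tested. Among all genes 1133 were called higher and 759 lower, and under plain per-million scaling 587 higher and 2285 lower, with the median of all genes at -0.11. LPS+DMA lay above LPS without overlap for Camk2a, Camk2b, Dlg4 and Ptk2b, as it did for 6.26% of all tested genes. The number of these genes past the threshold was 0 without LPS female 1, LPS male 1 or LPS male 2, 3 without LPS+DMA male 1, 4 without LPS+DMA male 2 and 9 without LPS female 2. It was also 0 with no filter on low values, and 0 when the 2 arms were fitted without PBS. These counts moved with the whole table, where 11 genes passed without LPS female 1, 7 without LPS male 1, 22 without LPS male 2 and 3465 without LPS female 2.

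LPS against PBS asks how daily LPS alone relates to saline, and it shares its LPS libraries with the contrast that chose the genes. All 9 differences were negative and none passed the test (limma with Benjamini-Hochberg adjustment over 19571 genes), where 0.0102% of genes passed and 2145 genes had an unadjusted p under 0.05. Nrgn had a log2 change of -3.30 (SE 0.86, adjusted p = 0.283), Ddn -3.08 (SE 1.05, adjusted p = 0.337) and Camk2a -2.36 (SE 0.71, adjusted p = 0.311). For Ptk2b and Icam5 the changes were -2.07 and -1.97, and for Dlg4, Shank3 and Camk2b they were -0.54, -0.52 and -0.36, at limma adjusted p from 0.311 to 0.475. Lrrc10b had a change of -0.0020 with an adjusted p of 1 by limma. The arms overlapped for all 9 genes, where 3.3% of the tested genes were lower without overlap.

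The outcome changed with 1 library. Without LPS female 2, the LPS library with no Gabra6 read and with the low share of ribosomal RNA, whose part in the result was not tested, 672 genes passed in LPS against PBS, 485 of them lower. Then 6 of the 9 genes fell, with log2 changes of -4.40 for Nrgn (limma adjusted p = 0.00165), -4.22 for Ddn (0.0182), -3.25 for Camk2a (0.00327), -2.85 for Ptk2b (0.00337), -2.75 for Icam5 (0.0118) and -0.75 for Dlg4 (0.0125). Without the 4 libraries with Gabra6, none of the 9 passed. LPS female 2 then stood alone for LPS, assumed to vary like the other arms, and the log2 changes against PBS were 0.47 for Ddn, 0.29 for Camk2a, 0.29 for Shank3, 0.15 for Icam5, 0.12 for Ptk2b, 0.041 for Nrgn, -0.0049 for Dlg4 and -0.10 for Camk2b, and 1.93 for Lrrc10b, all at a limma adjusted p of 1.

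LPS+DMA against PBS asks how the doubly treated brains relate to saline ones, and it shares its LPS+DMA libraries with the choosing contrast. None of the 9 genes passed the test, where 0.0102% of genes passed and 2235 had an unadjusted p under 0.05. Lrrc10b had the highest difference, 3.01 (SE 0.82, limma adjusted p = 0.324), with every LPS+DMA library above every PBS library and means of 31.0 ± 25.4 FPKM in LPS+DMA and 2.203 ± 1.68 in PBS (SD, n = 4 each). Camk2a, Dlg4 and Ptk2b also had every LPS+DMA library above every PBS library, with log2 changes of 0.75 (adjusted p = 0.693), 0.37 (0.466) and 1.23 (0.470) by limma. Among all tested genes 3.71% were higher without overlap in this comparison. Camk2b had a change of 0.57 (limma adjusted p = 0.325), with a 95% interval of 0.21 to 0.94. The changes of Ddn, Icam5, Nrgn and Shank3 were 1.08, 1.00, 0.20 and -0.025, at adjusted p from 0.575 to 0.976. Without the 4 libraries with Gabra6 the difference was 2.65 for Lrrc10b, 1.00 for Ptk2b, 0.80 for Ddn and 0.55 for Camk2a, with limma adjusted p of 0.713 for each.

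**Figure D3:**
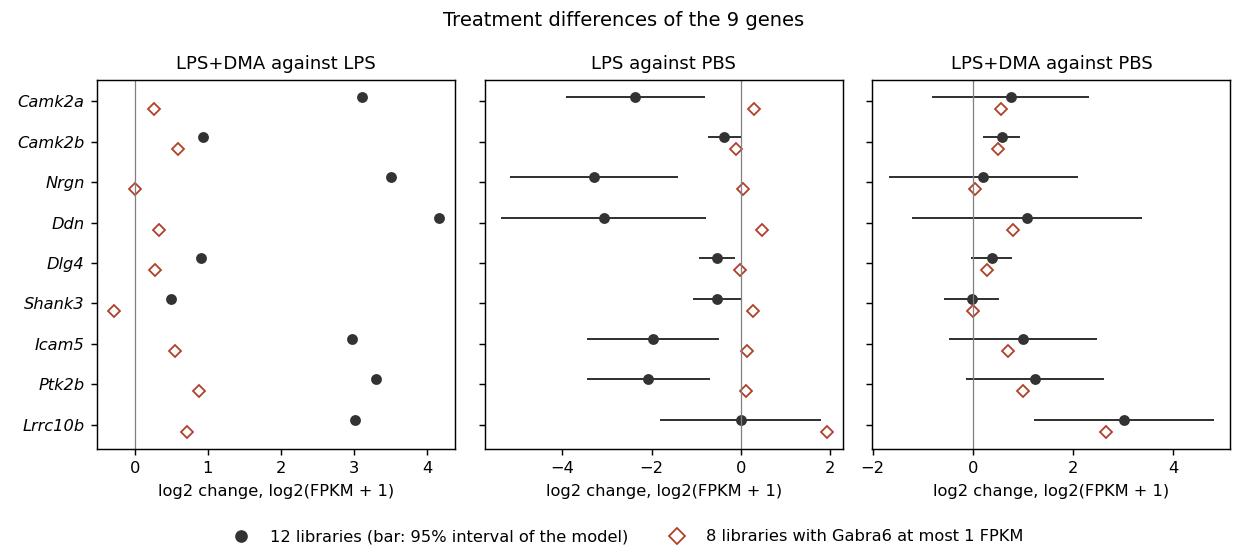
Log2 change of each gene on the log2(FPKM + 1) scale in 3 comparisons, over 12 libraries (filled points, with bars for the model's 95% interval where the contrast did not choose the genes) and over the 8 libraries with Gabra6 at most 1 FPKM (open diamonds). In LPS against PBS the filled points lie at or below 0, at -3.30 for Nrgn, and the diamonds of 7 genes lie above it.

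Males against females is another contrast than the one that chose the genes, but 8 of its 12 libraries are the LPS+DMA and LPS libraries of that choice. The 2 LPS males were among the 3 lowest libraries for all 9 genes. All 9 genes had lower means in males and none passed the test, where 0.0358% of genes passed and 1766 had an unadjusted p under 0.05. Ddn averaged 105 ± 100.2 FPKM in males and 182 ± 97.0 in females (SD, n = 6 each), a log2 change of -2.21 (SE 0.86, limma adjusted p = 0.510). Nrgn averaged 216 ± 162 FPKM in males and 368 ± 207 in females, a log2 change of -1.64 (adjusted p = 0.536), and Icam5 21.4 ± 20.9 and 38.7 ± 21.2, a change of -1.49 (adjusted p = 0.503). Every gene's sexes overlapped. Without the 4 libraries with Gabra6 the changes were -0.65 for Ddn, -0.50 for Nrgn and -0.80 for Icam5, with adjusted p from 0.795 to 0.829. The LPS against PBS change was lower in males than in females for all 9 genes. The difference was -5.35 on the log2 scale for Ddn, -4.24 for Nrgn and -3.42 for Camk2a. Its limma adjusted p was 1 for every gene, with 0 genes called in the whole table and 491 at an unadjusted p under 0.05. Over all tested genes 49.4% of these differences were positive. Each mean per arm and sex rested on 2 libraries. Ddn was at 42.8 and 235 FPKM in the LPS females and 0.507 and 0.959 in the LPS males.

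Summed levels of brain region markers differed between the libraries. The summed FPKM of the 9 genes was 1042 to 1544 in LPS+DMA, 74.3 to 1215 in LPS and 641 to 1149 in PBS. The summed FPKM of 13 cerebellar markers was 21.6 to 32.3 in LPS+DMA, 31.7 to 813 in LPS and 29.3 to 551 in PBS, and its lowest value in the LPS arm was in female 2. The order of the libraries was not the same in both sums: LPS male 1 had 130 FPKM of cerebellar markers and 74.3 of the 9 genes, and LPS female 1 had 813 and 241. PBS female 1 had 551 FPKM of cerebellar markers and 641 of the 9 genes, and the PBS males had 51.2 and 31.8 of cerebellar markers and 783 and 736 of the 9 genes. For 14 brainstem markers the sums were 2.70 to 11.99 in LPS+DMA, 5.47 to 183 in LPS and 1.16 to 33.0 in PBS. LPS female 1, female 2, male 1 and male 2 had 72.2, 5.47, 183 and 100.1 FPKM of brainstem markers. The 9 genes summed to 241, 1215, 74.3 and 98.9 FPKM in these libraries. The PBS libraries, in that order, had 14.9, 1.16, 8.70 and 33.0 of brainstem markers, and 641, 1149, 783 and 736 of the 9 genes. Of these 14 markers, 10 had no read in at least 1 LPS+DMA library, 7 in at least 1 LPS library and 8 in at least 1 PBS library.

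For 17 cortical and hippocampal markers the sums were 406 to 532 in LPS+DMA, 119 to 349 in LPS and 247 to 424 in PBS, and Fezf2 had no read in LPS male 1. The cortical transcription factor gene Tbr1 was at 9.07 to 24.5 FPKM in LPS+DMA, 0.0512 to 13.3 in LPS and 8.63 to 14.5 in PBS, lowest in the 2 LPS males. The summed FPKM of 15 pan-neuronal genes kept a narrower range, at 1585 to 1978 in LPS+DMA, 1725 to 2060 in LPS and 1703 to 1807 in PBS. It was highest in LPS male 1. Single genes of this list ranged more widely and in both directions, with 6 positive and 9 negative changes in LPS+DMA against LPS. Nefl was at 66.1 to 189 FPKM in LPS+DMA, 129 to 334 in LPS and 109 to 191 in PBS. Rbfox3 was at 16.6 FPKM in LPS male 1 and 40.4 in LPS+DMA female 1. The part of regional content in the differences of the 9 genes was not tested. Without the 4 libraries with Gabra6 the log2 differences in LPS+DMA against LPS were 0.88 for Ptk2b, 0.72 for Lrrc10b, 0.60 for Camk2b, 0.55 for Icam5, 0.33 for Ddn, 0.28 for Dlg4, 0.27 for Camk2a, -0.00057 for Nrgn and -0.29 for Shank3. In bulk tissue fewer cells of a type and less RNA per cell cannot be told apart.

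**Figure D4:**
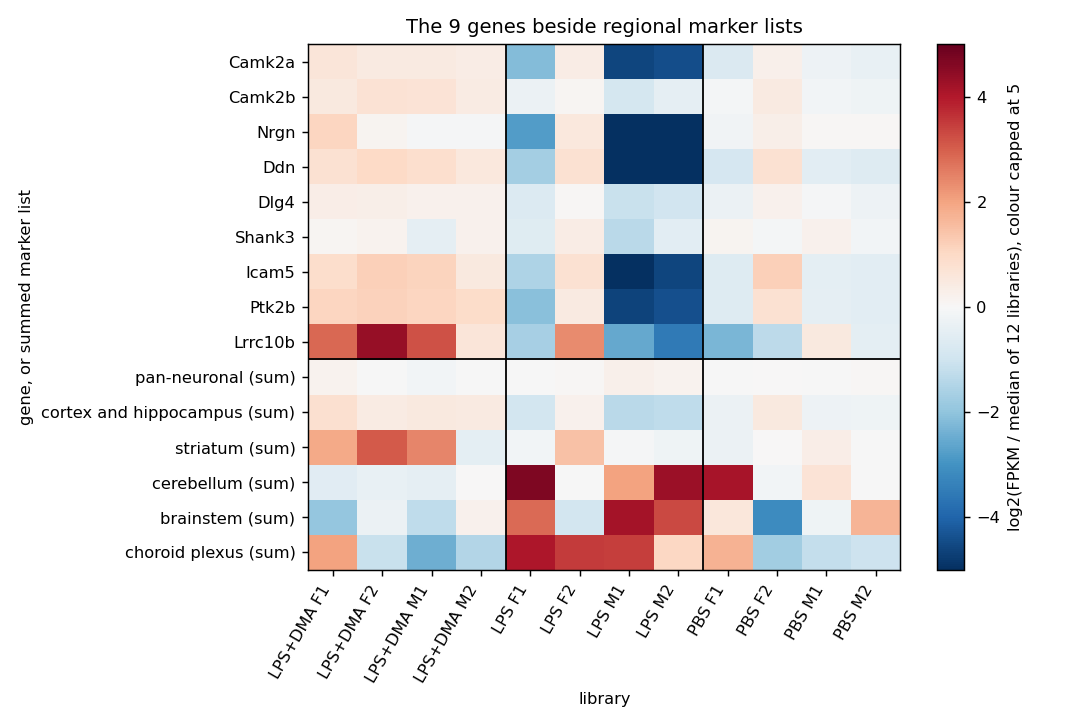
Level of the 9 genes and summed FPKM of 6 marker lists in each library, as log2 of the value over its median of 12 libraries, with colour capped at 5 on either side. LPS female 1 and both LPS males are blue for the 9 genes and red for cerebellum and brainstem, and the pan-neuronal sum is nearly white throughout.

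Marker lists of other kinds also differed between the arms. Choroid plexus genes summed to 23.0 to 501 FPKM in LPS+DMA, 255 to 2021 in LPS and 37.1 to 416 in PBS. In LPS+DMA against LPS 8 of 12 fell, as did 3.88% of all tested genes (limma adjusted p under 0.05). Ttr, the thyroid hormone carrier of the choroid plexus, was at 1244 FPKM in LPS female 2, where the 9 genes were high, and at 1765, 1139 and 181 FPKM in LPS female 1, male 1 and male 2, where they were low. Striatal genes summed to 109 to 1283 FPKM in LPS+DMA, 132 to 414 in LPS and 124 to 189 in PBS. The library with the lowest striatal sum, LPS+DMA male 2, was also the one with the lowest Lrrc10b in its arm, and the one with the highest, LPS+DMA female 2, had the highest Lrrc10b of all 12. The part of these markers in the result was not tested.

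The test across all genes (limma, adjusted p under 0.05) called 5.79% of genes higher and 3.88% lower in LPS+DMA against LPS. It called 12 of 17 cortical and hippocampal markers higher, with a median log2 change of 1.66. Among them was Slc17a7, a vesicular glutamate transporter gene, at 158 ± 24.5 FPKM in LPS+DMA and 58.1 ± 47.4 in LPS (SD, n = 4 each). Of the striatal markers 2 of 12 rose (median 1.61), of the tested brainstem markers 4 of 13 fell (median -1.31), and of the 13 cerebellar markers none passed, with a median of -2.30 and all 13 negative. Among markers of other cells, 4 of 7 microglial genes fell (median -0.72), 1 of 7 oligodendrocyte genes fell (median -1.08), and 1 astrocyte gene of 7 rose while 1 fell. Of 6 inhibitory neuron genes 2 rose and 1 fell (median 0.52), and none of 5 endothelial or 5 red blood cell genes passed (medians -0.12 and -1.51). None of these lists had a gene past the threshold without the 4 libraries with Gabra6, without LPS female 1 alone, without LPS male 1 alone or, choroid plexus with 2 genes apart, without LPS male 2 alone. Without LPS female 2, 11 cerebellar, 12 brainstem, 15 cortical and hippocampal, 7 striatal, 3 oligodendrocyte and 3 red blood cell markers passed. In that setting 3465 of the 19571 tested genes passed, 1856 higher and 1609 lower. Without PBS female 1, 4 cerebellar markers passed, and without LPS+DMA male 2, 10 striatal markers did. Other single libraries left out gave 0 to 3 brainstem, 0 to 2 striatal and 7 to 12 cortical and hippocampal markers, apart from 5 of the last without LPS+DMA male 2. For choroid plexus 1 gene passed without LPS+DMA female 2, 3 without LPS+DMA male 1 or male 2, and 6 to 9 without any one PBS library. Microglial genes numbered 2 without LPS+DMA female 1 and 3 or 4 without any other library of the LPS+DMA or PBS arm, and inhibitory neuron and astrocyte genes 0 to 3.

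Other genes of the same pathways were counted from lists chosen with earlier results of these data known. In LPS+DMA against LPS, 19 of 26 further postsynaptic scaffold genes rose and none fell (limma adjusted p under 0.05, as 5.79% of all genes rose), with a median log2 change of 0.94 against 0.010 over all genes. Among the most abundant, Baiap2 and Dlgap3, an actin regulator of spines and a partner of PSD-95, rose by 1.73 and 1.33 on the log2 scale, and Shank1 had a change of 0.92 without passing (adjusted p = 0.0835). Homer3 was the one gene of the list with a lower mean, at -1.90 (adjusted p = 0.117), and is named after its value was seen.

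Among 14 glutamate receptor genes 9 rose and none fell, where 5.79% of all tested genes rose and 3.88% fell. The median change was 0.82. The AMPA receptor genes Gria1 and Gria2 rose by 0.82 and 1.17, and the obligatory NMDA subunit gene Grin1 by 0.70, at 40.4 ± 4.92 FPKM in LPS+DMA and 24.5 ± 2.82 in LPS (SD, n = 4 each; limma adjusted p = 0.0192). Gria4 had a change of -0.78 (adjusted p = 0.0996). Of 18 other CaM kinase, calmodulin and calcineurin genes 6 rose, against the same 5.79% of all tested genes, and the median was 0.39. Camk2n1, an inhibitor of CaMKII, rose by 1.70, at 371 ± 91.6 FPKM in LPS+DMA and 148 ± 146 in LPS (adjusted p = 0.0256). The calmodulin genes Calm2 and Calm3 had changes of 0.37 and 0.14 and did not pass.

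Of 13 partners and relatives of PYK2 and the ICAM family, 5 rose and 1 fell, with a median of 0.29. Of all tested genes 5.79% rose and 3.88% fell. Src, a kinase that PYK2 engages, rose by 0.75, and Ezr, an actin-membrane linker, by 1.14. Fyn and Rdx had changes of 0.29 and -0.32 without passing (limma adjusted p = 0.275 and 0.103). The gene that fell was Icam2, an endothelial relative of Icam5, by 0.59, which is named after its value was seen. Of 15 pan-neuronal genes 2 rose and 2 fell, with a median of -0.11. Snap25, of the release machinery, had a change of -0.11, Uchl1 of -0.27, Syp of 0.35 and Nefl of -0.97. None of these 4 passed (limma adjusted p from 0.0858 to 0.679).

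The counts in these lists rested on the same libraries as the counts above. None of the scaffold, receptor, CaM kinase or PYK2 and ICAM genes passed in LPS+DMA against LPS without LPS female 1, without LPS male 1, without LPS male 2, or without the 4 libraries with Gabra6. Without LPS+DMA male 2, 10 scaffold and 5 receptor genes passed, and without LPS+DMA female 2, 2 PYK2 and ICAM genes. Without LPS female 2, 8 pan-neuronal genes did. Of all 19571 tested genes, 1119, 1071 and 3465 passed in these settings, in the order given. None of the first 4 lists had a gene past the threshold in LPS against PBS or in LPS+DMA against PBS with all 12 libraries. Without LPS female 2, 14 scaffold genes, 6 receptor genes, 4 CaM kinase genes and 3 PYK2 and ICAM genes passed in LPS against PBS. With that library out, 672 of the 19571 tested genes passed in this comparison, 485 of them lower.

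The 9 genes were alike in their course to different degrees. The correlation of each with the mean of the other 8, on the log2 scale over 12 libraries, was 0.989 for Ptk2b, 0.982 for Camk2a, 0.981 for Dlg4, 0.980 for Icam5, 0.966 for Ddn, 0.944 for Nrgn, 0.891 for Camk2b, 0.765 for Shank3 and 0.713 for Lrrc10b. These are descriptions of libraries that fall in separate groups, with no test. Over the 8 libraries with Gabra6 at most 1 FPKM it was 0.949 for Camk2a and 0.909 for Ptk2b, but 0.32 for Nrgn and -0.057 for Shank3.

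Among the genes with the course most similar to their mean, of 13724 coding genes over the same 12 libraries, were Chrm1 (r = 0.989), the main muscarinic receptor of forebrain neurons, Mmd (0.987), Dlgap3 (0.986), Psd (0.985), Nell2 (0.985), Gda (0.984) and Rin1 (0.984). Gda, which encodes guanine deaminase, had a median of 50.3 FPKM in LPS+DMA, 6.07 in LPS and 24.8 in PBS, and Chrm1 medians of 23.0, 1.79 and 9.69 FPKM in the same arms. Over the 8 libraries with Gabra6 at most 1 FPKM the correlations of these genes were 0.855 to 0.968. The most opposite courses were those of Lhx4 (r = -0.975), Ahnak2 (-0.971), Tmx2 (-0.970) and Calcb (-0.964). Lhx4, a transcription factor gene of developing motor neurons and pituitary, and Calcb, which encodes a calcitonin gene-related peptide, stayed at or under 2.47 FPKM in every library. In all, 417 of the 13724 genes had r above 0.9 and 122 below -0.9, and the points share the library, the scaling and the regional content described above.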

How the data were processed

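Brain RNA from 12 mice was sequenced, 1 library each. The deposited table holds FPKM values that the authors made per gene, with gene lengths. The build named is GRCm39, and the software listed includes STAR, GATK, HISAT2 2.2.1, fastp and featureCounts 2.0.6 as well as edgeR 4.0.16 and DESeq2 1.42.0, without roles, per the submitters' processing notes. The labels' protocols describe a stranded and an unstranded preparation without saying which was used. FPKM times length was a whole multiple of 1 step for 100% of values up to 1000 reads (tolerance 0.1). This gave totals of reads counted in genes of 27.5 to 41.4 M (megareads). The median-of-ratios factor of the FPKM was 1.01 in every library, so the values already carry such a scaling.

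The 19571 genes that reached 0.5 FPKM in 2 or more of the 12 libraries were tested as log2(FPKM + 1) in R 4.3.3 with limma 3.58.1, in an additive model of arm and sex with trended, robust variances, and p-values were adjusted over all of them by Benjamini-Hochberg (threshold 0.05). The sex difference used 1 mean per arm and sex. The steps were tested on simulated data. Alternatives changed the pseudocount, filter, scaling, variance model, samples and terms, and left out each library in turn. List counts and the sex difference were run under them after the data had been seen.

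The 9 genes and the 16 lists (191 genes) were chosen with earlier results of these data known. Named genes were the 9, up to 4 genes per list with the highest mean FPKM, the 8 most and 4 least similar coding genes, and regional markers, and other names are marked; a few genes that this rule names are not reported here. Promoters came from RefSeq (GRCm38.p6). Animals are separate per the labels. Fewest reads were 23 for Lrrc10b, 73 for Ddn and 83 for Icam5. Replicate numbers were not used to pair the libraries in the main model.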

Additional observations from a re-analysis of the deposited data

Results flagged for a closer look

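In groups of 4 libraries, 13 of 36 groups tested had 1 library far from the other 3 (Dixon's criterion), where chance gives about 1 in 20 groups if these are independent; these are not, since the genes share libraries and correlate (median r of 0.886 over pairs of the 9). Most of these were female 2 of the LPS or PBS arm. In the LPS arm, female 2 was at 291 FPKM for Camk2a (others 9.45 to 50.8), 459 for Nrgn (others 4.93 to 46.8), 44.0 for Ptk2b (others 1.31 to 7.72) and 16.5 for Lrrc10b (others 0.279 to 1.02). In the PBS arm, female 2 was at 80.4 FPKM for Camk2b (others 50.9 to 54.9), 231 for Ddn (others 76.8 to 96.6), 58.0 for Icam5 (others 16.5 to 18.2) and 55.7 for Ptk2b (others 20.7 to 24.0). PBS female 2 had no read of Gabra6, and neither had both PBS males, whose values for these 4 genes lay with those of PBS female 1.

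LPS+DMA female 1 was at 675 FPKM for Nrgn, against 303 to 352 in the other 3 of its arm, and at 416 FPKM for Ttr, against 1.91 to 18.7. Gabra6 was at 0.170 FPKM in LPS+DMA male 2 and had no read in the other LPS+DMA libraries. PBS female 1 was at 74.6 FPKM for Gabra6, with no read in the other PBS libraries, and at 327 FPKM for Ttr, against 0.576 to 5.19.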

How the results depend on the processing

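In LPS+DMA against LPS, 1892 genes passed; 83 passed with no filter, 2872 under plain scaling, 5 with only the 2 arms, 2 with a forebrain minus cerebellum score as covariate and 5 without the 4 libraries with Gabra6. Leaving out 1 library gave 7 to 3465. In LPS against PBS, 2 passed; 1 did with a pseudocount of 0.1, with no filter, with voom on recovered reads or with a replicate block, 4 with only the 2 arms or without the 4 libraries, and 0 with the covariate (0 to 672 with 1 library out, and 0 to 6 of the 9 genes). In LPS+DMA against PBS, 2 passed; 0 did with no filter, voom, only the 2 arms, no sex term or without the 4 libraries, and 1 with the replicate block or the covariate (0 to 6). Males against females gave 5 to 9 with 1 library out, around 7. The sex difference gave 2 genes with no filter and 0 to 17 with 1 library out, around 0. None of the 9 genes passed in LPS+DMA against LPS with no filter, only the 2 arms, the covariate or without the 4 libraries.

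The direction of single genes turned as follows. Without the 4 libraries, LPS+DMA against LPS became -0.00057 for Nrgn and -0.29 for Shank3, and LPS against PBS 0.29 for Camk2a, 0.041 for Nrgn, 0.47 for Ddn, 0.29 for Shank3, 0.15 for Icam5, 0.12 for Ptk2b and 1.93 for Lrrc10b. Lrrc10b, near 0 in LPS against PBS, also became 0.023 under plain scaling, 0.18 with voom, 1.21 with the covariate, and ranged from -0.82 to 0.50 with 1 library out. In LPS+DMA against PBS, Nrgn became -0.61 with the covariate and ranged from -0.19 to 0.56 with 1 library out, and Shank3 from -0.15 to 0.099. The cause was not tested.

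The replicate block changed no call of the 9 genes, with 2040 genes called in LPS+DMA against LPS. Over 12 same-numbered pairs the correlation of deviations was -0.299 to 0.413, with 2 above 0.1. No detection limit was computed, so a gene that missed the threshold is not shown to be unchanged.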
